A study of Homo sapiens with 6 samples.

Results

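The 40 genes described here encode the machinery of macroautophagy, chosen by name from the deposited TPM table (transcript abundance per length, scaled to a fixed total per library). They are kinases and scaffolds that start an autophagosome, a lipid kinase complex, proteins that supply membrane, enzymes that attach ATG8 proteins to it, the ATG8 proteins, receptors that bring cargo, and 2 genes of fusion with the lysosome. All 40 names were found among 18806 genes, and all 40 reached 1 TPM in 2 libraries or more, the limit for testing that 11151 genes met. The cells are Mono-mac-6, a line from a human acute myeloid leukemia that carries the MLL-AF9 fusion gene, grown with serum, and their poly(A)+ RNA was sequenced. A single Cas9 clone received a lentiviral guide, which was sgDDX6.1 or sgDDX6.2, both against the RNA helicase gene DDX6, or the control guide sgNS, and all groups were selected with blasticidin (10 µg/ml) and hygromycin B (200 µg/ml). Harvest is given as day 8 after infection, and the selection as lasting 1 to 2 weeks. Each of the 3 groups had 2 libraries, and the labels do not say that these came from separate cultures, so the error behind each p-value is the spread of these libraries alone and may be technical.

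Autophagy encloses parts of the cytoplasm in a double membrane that later fuses with lysosomes. The ULK1 kinase complex receives signals from mTORC1 and AMPK, the BECN1 and PIK3C3 complex makes phosphatidylinositol 3-phosphate (PI3P), and 2 ubiquitin-like reactions then link ATG8 proteins (LC3 and GABARAP) to lipid, where receptors such as SQSTM1 bind them. DDX6, a helicase of processing bodies, acts in the decay and the translational silencing of mRNA, and in yeast its counterpart Dhh1 is known to act with the decapping enzyme on mRNAs of autophagy genes.

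The targeted gene and the label of the cells were looked at first. DDX6 mRNA had 54.4 and 51.97 TPM with sgDDX6.1 and 52.3 and 53.5 TPM with sgDDX6.2, against 102 and 99.5 TPM with sgNS, a log2 fold change over both guides of -0.91 (SE 0.04, limma adjusted p = 4.61e-09). DDX6 was thus lower in all 4 sgDDX6 libraries, to a like level with either guide. Remaining mRNA is no measure of protein, and in bulk RNA fewer cells that carry an mRNA and less of it per cell cannot be told apart. Of 10 markers of monocytic leukemia cells, 9 had a mean TPM of 1 or more, and CD14 did not. The summed TPM of the 10 ran between 14560 and 15790 in sgDDX6 libraries, against 10170 and 10660 in the sgNS libraries, nearly all of it LYZ. The list itself was split. Over both guides 5 of the 10 were called higher by limma (CD33, LYZ, CSF1R, SPI1 and CD68) and 5 lower (ITGAM, ITGAX, CD14, FCGR1A and MPO). Among all tested genes 33.8% were called higher and 32.9% lower. MPO had 41.5 and 39.6 TPM with sgDDX6.1 and 28.99 and 30.9 TPM with sgDDX6.2, against 79.7 and 86.7 TPM with sgNS. Markers of T, B, erythroid, epithelial, fibroblast and endothelial cells, 18 in all, had a mean TPM under 1, and their summed TPM per cell type did not exceed 2.00 in any library. Pearson correlations of log2(TPM + 1) across tested genes, which are not independent replicates, were 0.998 within groups and between 0.969 and 0.975 for sgDDX6 with sgNS libraries.

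Promoter sequences are shown for the member that was lower with the lowest p (CALCOCO2), the member with the largest increase (BNIP3) and the single member that holds the CLEAR core (ATG3), whose level was not called different. Each covers 250 bases before and 50 bases from the RefSeq start on, 5′ to 3′ on the gene's strand, in GRCh38.p14; capitals mark the motifs searched for. CALCOCO2 lies on the plus strand at chr17:48830785-48831084 and its capitals are the FOXO motif GTAAACA, which starts 226 bases before the RefSeq start. BNIP3 lies on the minus strand at chr10:131981874-131982173, with the E-box CACGTG 134 bases before the start. ATG3 lies on the minus strand at chr3:112561913-112562212, with an E-box 18 bases before the start and the CLEAR core TCACGTGA, which contains a further E-box, 5 bases after it.
CALCOCO2: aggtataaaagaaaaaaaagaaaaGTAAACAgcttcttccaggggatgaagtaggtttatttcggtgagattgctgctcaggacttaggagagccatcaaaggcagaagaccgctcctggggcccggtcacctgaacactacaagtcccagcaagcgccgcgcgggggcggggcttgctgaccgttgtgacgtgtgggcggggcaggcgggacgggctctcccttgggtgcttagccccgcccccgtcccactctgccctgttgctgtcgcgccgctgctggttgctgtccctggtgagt
BNIP3: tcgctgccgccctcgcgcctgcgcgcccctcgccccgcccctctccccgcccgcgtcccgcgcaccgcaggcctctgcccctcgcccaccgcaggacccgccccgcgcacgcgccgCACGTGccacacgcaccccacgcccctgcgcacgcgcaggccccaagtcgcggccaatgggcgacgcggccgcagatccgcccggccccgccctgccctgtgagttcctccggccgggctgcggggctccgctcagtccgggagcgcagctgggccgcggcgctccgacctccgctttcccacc
ATG3: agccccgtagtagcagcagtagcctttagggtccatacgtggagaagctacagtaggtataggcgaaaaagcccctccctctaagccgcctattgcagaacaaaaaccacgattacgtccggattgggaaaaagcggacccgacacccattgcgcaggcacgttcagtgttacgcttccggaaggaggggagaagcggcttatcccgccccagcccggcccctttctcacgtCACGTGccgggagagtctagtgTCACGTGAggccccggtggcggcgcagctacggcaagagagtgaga

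Of the 40 genes, 34 had such a promoter in the RefSeq table, and 4 motifs known for factors that bind autophagy or stress promoters were searched on both strands. The CLEAR core TCACGTGA, bound by TFEB and TFE3, was held by 1 of the 34 genes (2.94%), against 2.36% of the 8717 tested genes with a promoter. The E-box CACGTG was held by 3 genes (8.82%, against 13.1%), ATG3, ATG14 and BNIP3. The FOXO motif GTAAACA was held by CALCOCO2 alone (2.94%, against 3.43%). The ATF4 element TGATGNAAN was held by 0 of the 34, against 2.63%. These counts are descriptions of the letters in the windows, not of binding.

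The autophagy genes differed unevenly between the sgDDX6 and sgNS libraries. Over both guides 24 of 40 passed an adjusted p of 0.05, 8 higher and 16 lower, which is 60.0% in either direction. Among all 11151 tested genes 66.7% passed, 33.8% higher and 32.9% lower, so the share called was near that of all genes. The changes were moderate. Log2 fold changes ran between -0.75 for ATG16L2 and 0.51 for BNIP3, with a median of -0.02 beside 0.00 over all tested genes, and a median size of 0.21 beside 0.23. At 1.5-fold or more, 3 of 40 genes were lower (against 7.15% of tested genes), ULK1, ATG16L2 and CALCOCO2, and 0 were higher (against 5.44%), in limma with 8 higher at an unadjusted p under 0.05 and any size. In 13 of 40 genes all 4 sgDDX6 libraries lay below both sgNS libraries (32.5%, against 31.9% of tested genes), and in 7 all lay above (17.5%, against 31.5%). With the 4 sgDDX6 libraries fitted as 1 group, 17 of the 40 genes passed in place of 24. Of all tested genes 5212 passed in place of 7434, so fewer were called in both sets. The calls over both guides of ULK2, BECN1, WIPI1, ATG9A, GABARAP, GABARAPL1 and TAX1BP1 were lost (limma adjusted p between 0.120 and 0.518).

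**Figure D1:**
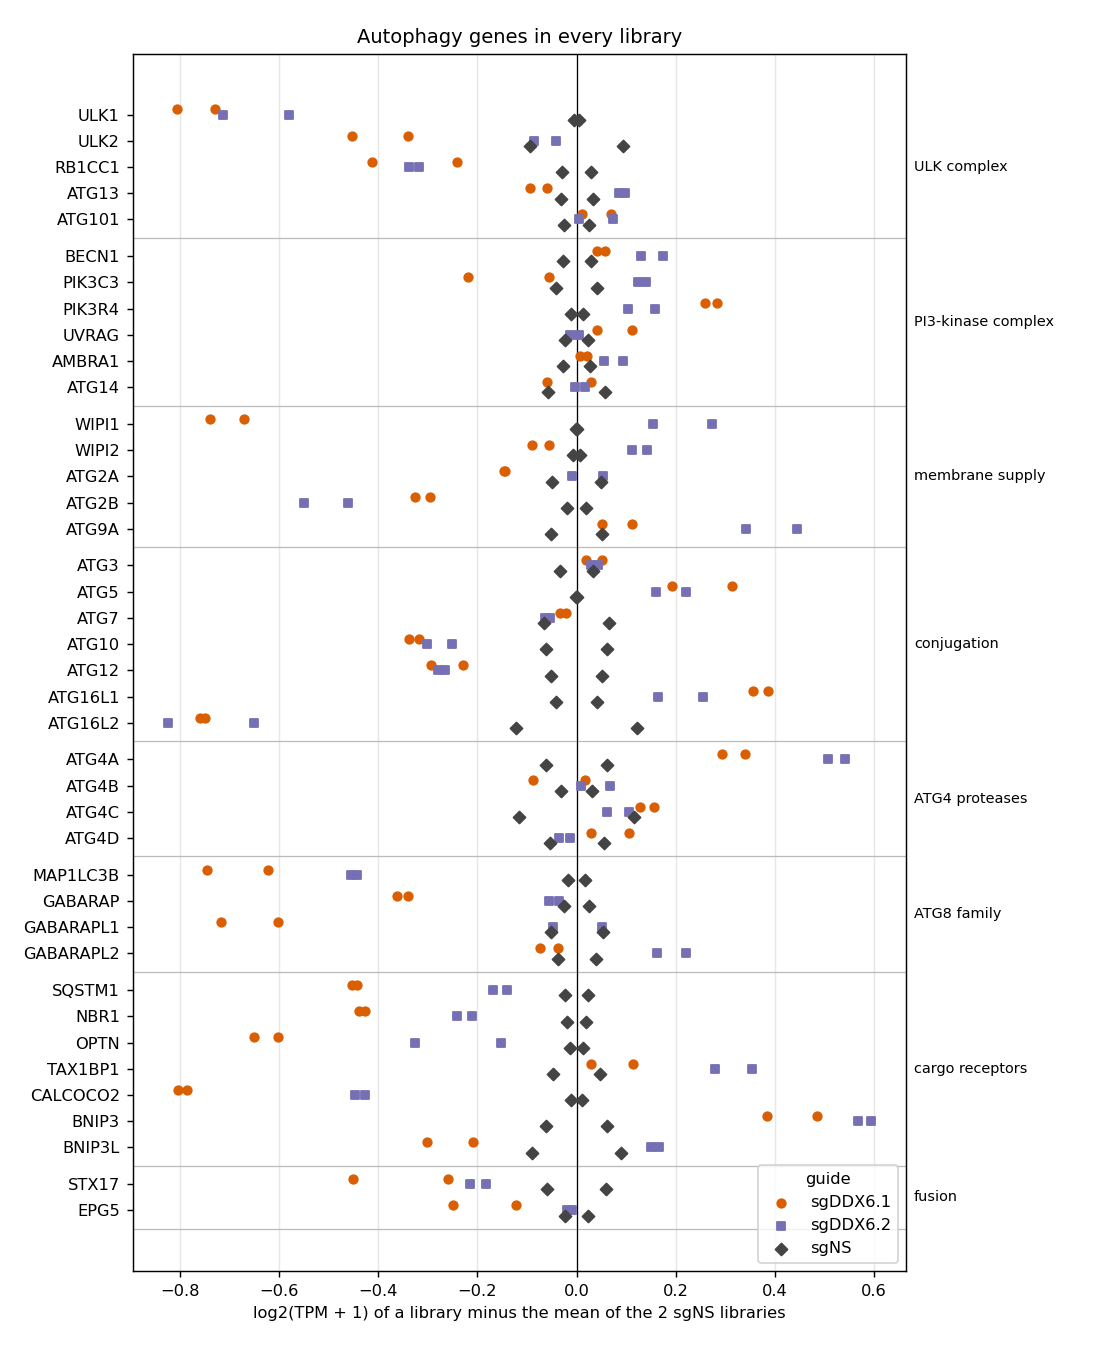
Each autophagy gene in every library, as log2(TPM + 1) minus the mean of the 2 sgNS libraries; rows are genes grouped by role, points are libraries of sgDDX6.1 (circles), sgDDX6.2 (squares) and sgNS (diamonds). ULK1, ATG16L2, MAP1LC3B and CALCOCO2 stand left of sgNS with both guides, BNIP3, ATG4A and ATG16L1 stand right, and WIPI1 and GABARAPL1 are low with sgDDX6.1 only, as drawn.

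Among the genes of the ULK complex, which starts autophagy, 3 of 5 fell over both guides and 0 rose (against 33.8% higher and 32.9% lower among all tested genes; 0 rose also at an unadjusted limma p under 0.05). The call of ULK2, among these 3, rested on nearly every library. ULK1, the initiating kinase (chromosome 12, 131894651 to 131923167, plus strand, GRCh38), had 6.26 and 5.88 TPM with sgDDX6.1 and 6.34 and 7.05 TPM with sgDDX6.2, against 10.99 and 11.1 TPM with sgNS. All 4 sgDDX6 values lay well below both sgNS values, and the log2 fold change was -0.71 (SE 0.07, limma adjusted p = 3.47e-06). RB1CC1, also called FIP200, the scaffold of the complex, had 35.6 and 31.5 TPM with sgDDX6.1 and 33.7 and 33.3 TPM with sgDDX6.2, against 43.2 and 41.4 TPM with sgNS, a change of -0.33 (SE 0.06, limma adjusted p = 0.000253). It was -0.33 with sgDDX6.1 and -0.33 with sgDDX6.2. With a trend on transcript GC content removed it was still called but smaller, at -0.16 over both guides (limma adjusted p = 0.00166), -0.19 with sgDDX6.1 and -0.14 with sgDDX6.2. ULK2, the paralog of ULK1, was the least abundant of the 40 genes, with 1.45 and 1.65 TPM with sgDDX6.1 and 2.16 and 2.26 TPM with sgDDX6.2, against 2.14 and 2.58 TPM with sgNS. Only its sgDDX6.1 libraries lay below sgNS, and its value over both guides, -0.23 (SE 0.09, limma adjusted p = 0.0467), did not pass without any of 5 of the 6 libraries (adjusted p between 0.0502 and 0.361). It was -0.10 with a pseudocount of 5 and -0.14 with quantile normalization. ATG13 and ATG101, which join ULK1 to the scaffold, were not called. ATG101 had 28.8 and 30.1 TPM with sgDDX6.1 and 28.7 and 30.2 TPM with sgDDX6.2, against 28.1 and 29.1 TPM with sgNS, a log2 fold change of 0.04 (SE 0.05, limma adjusted p = 0.5), and ATG13 had 0.01.

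The PI3-kinase complex makes the lipid that marks the growing membrane, and most of its genes were not called. BECN1, its regulatory subunit, had 68.98 and 68.2 TPM with sgDDX6.1 and 72.6 and 74.9 TPM with sgDDX6.2, against 67.6 and 64.97 TPM with sgNS. Its sgDDX6 values all lay above sgNS by a small margin, a log2 fold change of 0.10 (SE 0.04, limma adjusted p = 0.0457), which did not pass without any of 5 of the 6 libraries (adjusted p between 0.0603 and 0.283). PIK3R4, the scaffold subunit VPS15, had 32.8 and 32.2 TPM with sgDDX6.1 and 28.8 and 29.99 TPM with sgDDX6.2, against 27.0 and 26.5 TPM with sgNS, and rose, with a log2 fold change of 0.20 (SE 0.05, limma adjusted p = 0.00283). This rise was not called with sgDDX6.2 alone (0.13, SE 0.06, limma adjusted p = 0.0555). The lipid kinase PIK3C3 (0.00) and ATG14, which directs the complex to autophagosome formation (0.00), had log2 fold changes near 0 and were not called. The PIK3C3 value averages -0.14 with sgDDX6.1 and 0.13 with sgDDX6.2, neither called (limma adjusted p = 0.0755 and 0.0837). Both were called with quantile normalization, with median centring or with a term for the replicate number. ATG14 had -0.01 and 0.01 with the guides. UVRAG, of the endosomal form of the complex, had 32.9 and 31.3 TPM with sgDDX6.1 and 30.04 and 30.4 TPM with sgDDX6.2, against 29.9 and 30.9 TPM with sgNS, which gave 0.04 (SE 0.05, limma adjusted p = 0.532). AMBRA1, a partner of BECN1, had 23.6 and 23.3 TPM with sgDDX6.1 and 24.2 and 24.8 TPM with sgDDX6.2, against 22.8 and 23.7 TPM with sgNS, which gave 0.04 (SE 0.05, limma adjusted p = 0.458). In both genes the sgDDX6 and sgNS values overlapped.

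Genes that supply membrane moved in different directions. ATG2B, which transfers lipid, had 10.9 and 10.7 TPM with sgDDX6.1 and 9.61 and 8.98 TPM with sgDDX6.2, against 13.4 and 13.8 TPM with sgNS. It was lower with both guides, at -0.41 (SE 0.06, limma adjusted p = 0.000111), while its paralog ATG2A was not called, at -0.06 (SE 0.06, limma adjusted p = 0.395) with 11.1 and 11.1 TPM with sgDDX6.1 and 12.3 and 12.8 TPM with sgDDX6.2, against 11.9 and 12.8 TPM with sgNS. TPM is scaled by length, so levels of genes can be set side by side: the ratio of ATG2A to ATG2B was between 1.02 and 1.43 in sgDDX6 libraries, against 0.887 and 0.926 with sgNS. ATG9A, the membrane protein of the vesicles that seed autophagosomes, had 54.4 and 52.2 TPM with sgDDX6.1 and 64.02 and 68.8 TPM with sgDDX6.2, against 48.5 and 52.1 TPM with sgNS. Its rise over both guides, 0.24 (SE 0.05, limma adjusted p = 0.00111), came with high sgDDX6.2 values, and with sgDDX6.1 alone it was not called (0.08, SE 0.06, limma adjusted p = 0.231). WIPI1 and WIPI2, which bind PI3P, are taken up with the comparison of the guides.

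Among the conjugation genes the paralogs ATG16L1 and ATG16L2 changed in opposite directions. ATG16L1, which places the ATG12 and ATG5 conjugate on the membrane, had 31.5 and 30.8 TPM with sgDDX6.1 and 26.9 and 28.6 TPM with sgDDX6.2, against 23.2 and 24.6 TPM with sgNS. It rose, with a log2 fold change of 0.29 (SE 0.05, limma adjusted p = 0.000421). ATG16L2, a paralog that is known to bind ATG5 without being needed for autophagy in mouse cells (chromosome 11, 72814308 to 72843674, plus strand, GRCh38), had 33.2 and 32.96 TPM with sgDDX6.1 and 31.5 and 35.6 TPM with sgDDX6.2, against 51.9 and 61.6 TPM with sgNS. It had the largest fall of the 40 genes, at -0.75 (SE 0.07, limma adjusted p = 2.03e-06), and all 4 sgDDX6 values lay below sgNS. The TPM of ATG16L1 was between 0.804 and 0.948 of that of ATG16L2 in sgDDX6 libraries, against 0.446 and 0.399 with sgNS. ATG16L2 shares 680 exon bases with FCHSD2 on the opposite strand, and whether reads were counted by strand is not given in the sources used here. FCHSD2 had a log2 fold change of -0.19 (limma adjusted p = 0.00426).

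ATG5 and ATG12, the 2 partners of that conjugate, also parted. ATG5 had 42.4 and 38.9 TPM with sgDDX6.1 and 39.7 and 38.1 TPM with sgDDX6.2, against 33.9 and 33.96 TPM with sgNS, a log2 fold change of 0.22 (SE 0.05, limma adjusted p = 0.00199). ATG12 had 25.3 and 24.1 TPM with sgDDX6.1 and 24.4 and 24.6 TPM with sgDDX6.2, against 30.9 and 28.7 TPM with sgNS, a log2 fold change of -0.27 (SE 0.05, limma adjusted p = 0.000791). With the GC trend removed, the value over both guides was 0.37 for ATG5 and -0.10 for ATG12 (limma adjusted p = 0.0313), and ATG12 was no longer called with sgDDX6.2 alone (-0.08, limma adjusted p = 0.113). ATG10, the enzyme that joins them, fell too, at -0.30 (SE 0.07, limma adjusted p = 0.00235), with 6.41 and 6.31 TPM with sgDDX6.1 and 6.49 and 6.76 TPM with sgDDX6.2, against 8.64 and 7.85 TPM with sgNS; it shares 374 exon bases with the ribosomal protein gene RPS23 on the opposite strand, which had -0.36 (limma adjusted p = 1.45e-06). The E1-like enzyme ATG7 (-0.04) and the E2-like enzyme ATG3 (0.04) serve the ATG8 reaction and were not called, with ATG3 between 91.8 and 97.4 TPM in every library.

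ATG4 proteases trim ATG8 proteins and free them from lipid. ATG4A had 9.0 and 8.68 TPM with sgDDX6.1 and 10.2 and 10.5 TPM with sgDDX6.2, against 6.57 and 7.24 TPM with sgNS, and rose, with a log2 fold change of 0.42 (SE 0.07, limma adjusted p = 0.000168). It was the only protease gene called in limma, and 1 was at an unadjusted p under 0.05. ATG4B, the most abundant of the 4, had 46.7 and 50.3 TPM with sgDDX6.1 and 50.03 and 52.1 TPM with sgDDX6.2, against 48.6 and 50.8 TPM with sgNS, which gave 0.00 (SE 0.05, limma adjusted p = 0.976). ATG4C had 13.5 and 13.8 TPM with sgDDX6.1 and 13.3 and 12.8 TPM with sgDDX6.2, against 13.4 and 11.2 TPM with sgNS, which gave 0.11 (SE 0.07, limma adjusted p = 0.181). ATG4D had 29.1 and 27.6 TPM with sgDDX6.1 and 26.3 and 26.8 TPM with sgDDX6.2, against 25.98 and 28.1 TPM with sgNS, which gave 0.02 (SE 0.05, limma adjusted p = 0.737). These 3 were not called. After removal of a trend on transcript GC content ATG4C passed, at 0.32 (adjusted p = 0.00117), and it also did without the first sgNS library, at 0.23 (adjusted p = 0.0273).

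Of the 4 ATG8 genes 3 fell over both guides and 0 rose (against 33.8% higher and 32.9% lower among all tested genes; 0 rose also at an unadjusted limma p under 0.05). Of these 3, GABARAP and GABARAPL1 were not called with sgDDX6.2 and lost the call over both guides when the 4 sgDDX6 libraries were fitted as 1 group. MAP1LC3B, which encodes LC3B, the usual marker of autophagosomes (chromosome 16, 87383995 to 87404779, plus strand, GRCh38), had 49.3 and 45.2 TPM with sgDDX6.1 and 55.96 and 55.4 TPM with sgDDX6.2, against 77.4 and 75.5 TPM with sgNS. Every sgDDX6 value was below both sgNS values, and the log2 fold change was -0.57 (SE 0.05, limma adjusted p = 6.82e-07). GABARAP was the most abundant autophagy gene, with 263 and 267 TPM with sgDDX6.1 and 330.5 and 326 TPM with sgDDX6.2, against 333 and 345 TPM with sgNS. It was lower mainly with sgDDX6.1, as -0.35 against sgNS (limma adjusted p = 7.92e-06), and not called with sgDDX6.2 (-0.04, SE 0.04, limma adjusted p = 0.304). GABARAPL1 was also lower over both guides, at -0.33 (SE 0.07, limma adjusted p = 0.00112), and is taken up with the comparison of the guides (with sgDDX6.2 alone 0.00, limma adjusted p = 0.987). GABARAPL2 had 97.1 and 99.5 TPM with sgDDX6.1 and 119 and 114 TPM with sgDDX6.2, against 105 and 99.5 TPM with sgNS and was not called over both guides (0.07, SE 0.04, limma adjusted p = 0.155). It was called higher with sgDDX6.2 alone (0.19, SE 0.05, limma adjusted p = 0.00342) and not called with sgDDX6.1 (-0.06). MAP1LC3B held between 10.8% and 11.8% of the summed TPM of these 4 genes in sgDDX6 libraries, against 14.7% and 14.2% with sgNS, and GABARAPL2 between 22.5% and 23.7%, against 19.9% and 18.7%. MAP1LC3B2, a near copy that could share reads with MAP1LC3B, had at most 1.02 TPM.

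Of the 7 cargo receptors 4 fell and 2 rose over both guides (against 33.8% higher and 32.9% lower among all tested genes), among them the fall with the lowest p and the largest rise of the 40 genes. CALCOCO2, or NDP52, which brings bacteria and damaged mitochondria to autophagosomes (chromosome 17, 48830988 to 48866522, plus strand, GRCh38), had 69.7 and 70.6 TPM with sgDDX6.1 and 89.6 and 90.9 TPM with sgDDX6.2, against 122 and 124 TPM with sgNS. The 3 groups did not overlap, and over both guides the log2 fold change came to -0.62 (SE 0.04, limma adjusted p = 5.23e-08), the lowest p of the 40 genes. SQSTM1, or p62, the receptor of ubiquitinated aggregates (chromosome 5, 179806398 to 179838078, plus strand, GRCh38), had 206 and 207 TPM with sgDDX6.1 and 250.6 and 256 TPM with sgDDX6.2, against 278 and 287 TPM with sgNS. It fell by less, at -0.30 (SE 0.03, limma adjusted p = 7.36e-06), and again without overlap of the groups. NBR1, which works with SQSTM1, had 26.3 and 26.1 TPM with sgDDX6.1 and 30.1 and 30.7 TPM with sgDDX6.2, against 36.2 and 35.2 TPM with sgNS, and fell, with a log2 fold change of -0.33 (SE 0.05, limma adjusted p = 6.69e-05). OPTN, a receptor in mitophagy, had 10.7 and 11.1 TPM with sgDDX6.1 and 13.6 and 15.5 TPM with sgDDX6.2, against 17.5 and 17.1 TPM with sgNS, a log2 fold change of -0.43 (SE 0.06, limma adjusted p = 0.000104).

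BNIP3, a mitochondrial receptor known as a target of hypoxia-inducible factors, went the other way. It had 52.4 and 48.8 TPM with sgDDX6.1 and 55.6 and 56.6 TPM with sgDDX6.2, against 38.8 and 35.5 TPM with sgNS, a log2 fold change of 0.51 (SE 0.05, limma adjusted p = 3.84e-06), with all 4 sgDDX6 values above sgNS. GENCODE names 39 pseudogenes after BNIP3, so the division of its reads is less certain. Its paralog BNIP3L, or NIX, was not called over both guides (-0.05). The ratio of BNIP3 to BNIP3L was between 1.70 and 2.09 in sgDDX6 libraries, against 1.25 and 1.30 with sgNS. TAX1BP1, a receptor of ubiquitinated cargo related to CALCOCO2, had 112 and 106 TPM with sgDDX6.1 and 133 and 126 TPM with sgDDX6.2, against 107 and 101 TPM with sgNS and was called over both guides, at 0.19 (SE 0.04, limma adjusted p = 0.00205). With sgDDX6.1 alone it was not called (0.07, limma adjusted p = 0.241) and overlapped sgNS, so the call came with high sgDDX6.2 values. With the GC trend removed the value over both guides was 0.33. TAX1BP1 held between 20.8% and 22.4% of the summed TPM of the 7 receptors in sgDDX6 libraries, against 17.05% and 16.1% with sgNS, and CALCOCO2 between 13.9% and 14.9%, against 19.3% and 19.7%.

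Of the 2 fusion genes, STX17, the SNARE of the autophagosome, had 12.8 and 11.1 TPM with sgDDX6.1 and 13.5 and 13.2 TPM with sgDDX6.2, against 16.2 and 14.8 TPM with sgNS, and fell, with a log2 fold change of -0.28 (SE 0.07, limma adjusted p = 0.00409). For sgDDX6.2 alone it was -0.20 (limma adjusted p = 0.048). With the GC trend removed that value was -0.10 and no longer called (limma adjusted p = 0.154). EPG5, a tether for late endosomes and lysosomes, had 10.8 and 9.82 TPM with sgDDX6.1 and 11.8 and 11.7 TPM with sgDDX6.2, against 12.1 and 11.7 TPM with sgNS and was not called (-0.10, SE 0.06, limma adjusted p = 0.182). Of the 40 genes, 16 share exon bases with another gene of the table. FBXO31, opposite MAP1LC3B over 150 bases, had -0.34, PSME3, opposite BECN1 over 300 bases, had 0.19, and THAP4, opposite ATG4B over 237 bases, had 0.27. The part of such reads in the values of the autophagy genes was not tested.

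Summed over each role, sgDDX6.1 libraries differed from sgNS mostly in the ATG8 and receptor classes. The 4 ATG8 genes summed to 418 and 419 TPM with sgDDX6.1 and 519 and 508 TPM with sgDDX6.2, against 527 and 533 TPM with sgNS. The 7 receptors summed to 502 and 493 TPM with sgDDX6.1 and 605 and 608 TPM with sgDDX6.2, against 629.9 and 626 TPM with sgNS. All 40 genes together summed to 1772 and 1744 TPM with sgDDX6.1 and 2002 and 2013 TPM with sgDDX6.2, against 2031 and 2042 TPM with sgNS. Thus the sums of both classes were low with sgDDX6.1, and with sgDDX6.2 they lay closer to sgNS. GABARAP held 63.0% to 64.7% of the ATG8 sum and SQSTM1 41.0% to 45.8% of the receptor sum. With sgDDX6.2 limma called 4 of the 7 receptors lower and 2 higher, and 1 of the 4 ATG8 genes lower and 1 higher. Among all tested genes 32.7% were lower and 31.5% higher. Membrane supply summed to 132 and 131 TPM with sgDDX6.1 and 157 and 165 with sgDDX6.2, against 139 and 144 with sgNS. These sums are descriptions, with no test.

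**Figure D2:**
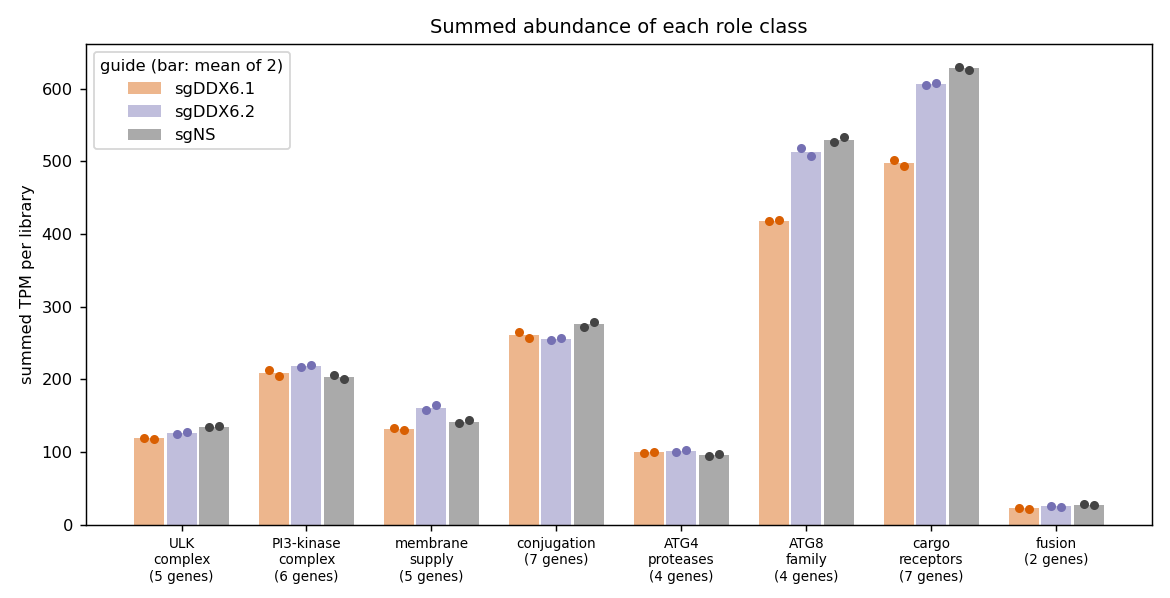
Summed TPM of each role class per library (points) with the mean of the 2 libraries (bars), for sgDDX6.1, sgDDX6.2 and sgNS from left to right in each class. The ATG8 family and the cargo receptors are lower with sgDDX6.1, near 418 and 498 TPM on average, than with sgDDX6.2 or sgNS.

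With single guides, sgDDX6.1 had 18 autophagy genes lower and 5 higher against sgNS (23 of 40 in all, against 61.6% of all tested genes called, 29.7% lower and 31.8% higher), with a median of -0.11 beside 0.01 over all tested genes. With sgDDX6.2 12 were lower and 10 higher (22 of 40 in all, against 64.2% of all tested genes called, 32.7% lower and 31.5% higher), with a median of 0.01 beside -0.01. The comparisons share the sgNS libraries. At 1.5-fold or more, 7 of 40 genes were lower with sgDDX6.1 (against 7.77% of tested genes) and 2 with sgDDX6.2 (against 7.26%). None of the 40 was higher at that size by limma (against 4.79% and 7.66%), where at any size 5 and 12 were higher at an unadjusted p under 0.05. By the calls, 12 genes were lower with each guide: ULK1, RB1CC1, ATG2B, ATG10, ATG12, ATG16L2, MAP1LC3B, SQSTM1, NBR1, OPTN, CALCOCO2 and STX17. There were 4 higher with each guide, ATG5, ATG16L1, ATG4A and BNIP3, and 1, WIPI1, was lower with sgDDX6.1 and higher with sgDDX6.2. How many of all tested genes were called alike with both guides was not counted. These joint counts thus have no share to be set against and are not read as a trait of the autophagy genes. Without 1 library the sgDDX6.2 calls of ATG5, ATG10, ATG16L1, OPTN, STX17, BECN1, WIPI1 and WIPI2 could be lost. So could the sgDDX6.1 calls of ULK2, BNIP3L and EPG5, which are among the 18 lower genes. The count of 10 higher with sgDDX6.2 was 6 without the second sgDDX6.2 library.

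The guides were then compared with each other, and here the autophagy genes leaned to a single side. Of the 40 genes, 16 were higher with sgDDX6.2 than with sgDDX6.1 and 0 were lower by limma (against 17.0% and 18.6% of all tested genes, and 35.6% in either direction). At an unadjusted p under 0.05 the counts were 21 and 3, against 2345 and 2757 of the 11151 tested genes. After removal of a trend on transcript GC content 21 were higher and 4 lower at the adjusted threshold. Of all 4943 genes called after that removal 42.1% were higher, against 47.8% of the 3971 called in the main fit. The median log2 difference was 0.15, beside -0.02 over all tested genes. At 1.5-fold or more 2 of 40 were higher, WIPI1 and GABARAPL1 (against 2.91% of tested genes), and 0 lower (against 0.242%). By role, 4 of 4 ATG8 genes and 6 of 7 receptors were higher with sgDDX6.2, as were 3 of 5 membrane supply genes, 2 of 5 ULK complex genes and 1 of 6 PI3-kinase genes. The 7 conjugation genes, the 4 proteases and the 2 fusion genes held 0 calls by limma, with 2 higher and 1 lower among these 13 at an unadjusted p under 0.05. DDX6 mRNA itself differed by -0.01 (SE 0.05, limma adjusted p = 0.918) between the guides, and the 4 values overlapped.

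**Figure D3:**
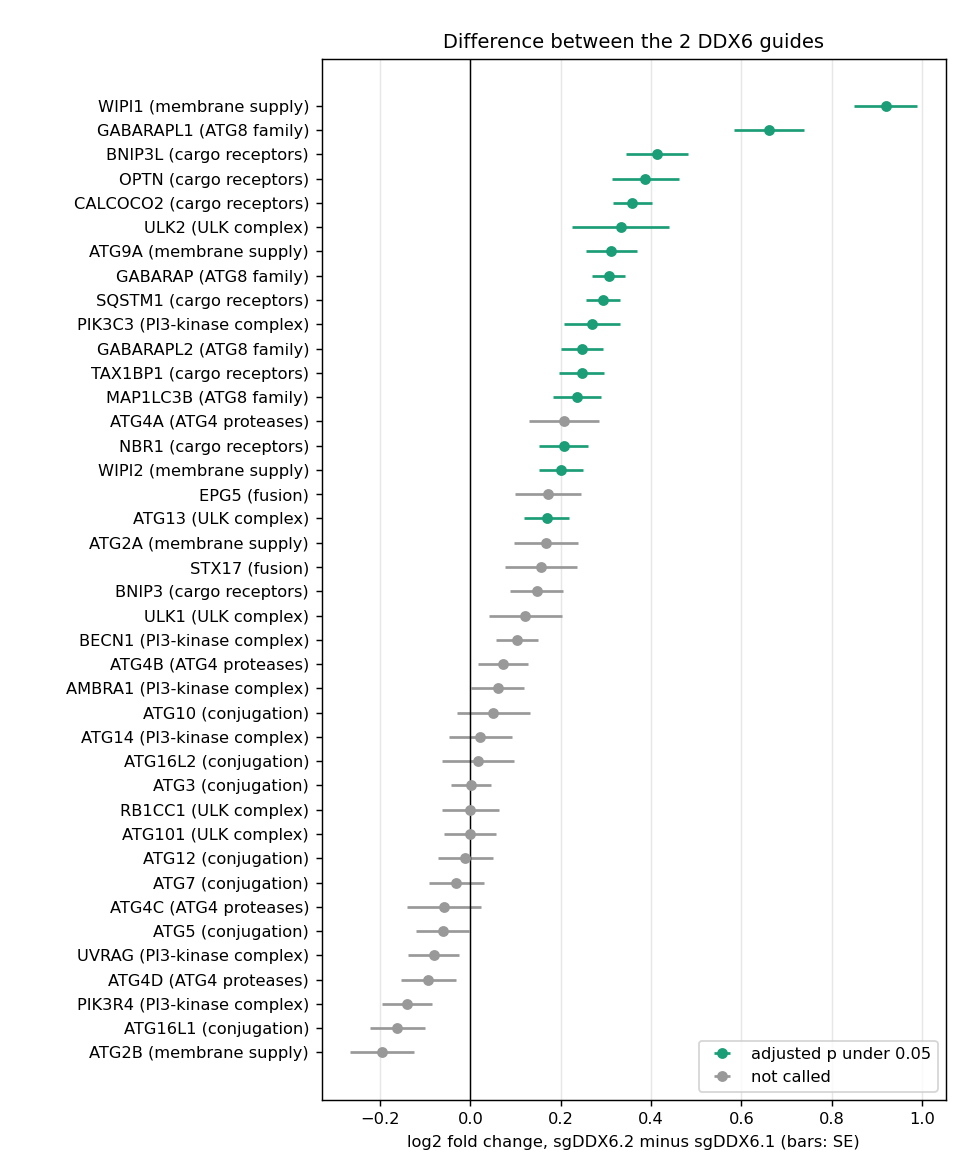
Log2 fold change of sgDDX6.2 minus sgDDX6.1 for each of the 40 genes with its SE (bars), sorted; green points passed an adjusted p of 0.05. The 16 genes that passed all lie right of 0, with WIPI1 and GABARAPL1 farthest.

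WIPI1, a PI3P-binding protein of early autophagosomes (chromosome 17, 68420948 to 68457513, minus strand, GRCh38), differed most. It had 17.6 and 19.2 TPM with sgDDX6.2 and 9.48 and 8.99 TPM with sgDDX6.1, beside 15.7 and 15.7 TPM with sgNS. The sgDDX6.2 values lay slightly above sgNS and the sgDDX6.1 values far below, a difference of 0.92 (SE 0.07, limma adjusted p = 6.05e-06). Against sgNS it was -0.71 with sgDDX6.1 (limma adjusted p = 5.27e-06) and 0.21 with sgDDX6.2 (limma adjusted p = 0.0191), and the call with sgDDX6.2 was lost without the second sgDDX6.2 library or either sgNS library (adjusted p between 0.0592 and 0.187). Its value over both guides, -0.25, averages opposite changes. WIPI1 shares 828 exon bases with ARSG on the opposite strand. ARSG had -0.72 with sgDDX6.2 and -0.56 with sgDDX6.1 against sgNS, and sgDDX6.2 minus sgDDX6.1 was -0.16 (limma adjusted p = 0.139). WIPI2, the paralog that recruits ATG16L1, had 53.8 and 54.97 TPM with sgDDX6.2 and 46.6 and 47.8 TPM with sgDDX6.1, beside 49.9 and 49.5 TPM with sgNS. It differed by 0.20 (SE 0.05, limma adjusted p = 0.00807), and not without the second sgDDX6.2 library (adjusted p = 0.0834).

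GABARAPL1, the least abundant of the 4 ATG8 genes and known as a FOXO target, had 13.2 and 12.3 TPM with sgDDX6.2 and 8.04 and 7.35 TPM with sgDDX6.1, beside 12.2 and 13.2 TPM with sgNS. Its sgDDX6.2 values lay among those of sgNS and its sgDDX6.1 values below both, a difference of 0.66 (SE 0.08, limma adjusted p = 0.000115). The other ATG8 genes differed less, GABARAP by 0.31 (SE 0.04, limma adjusted p = 0.000125), GABARAPL2 by 0.25 and MAP1LC3B by 0.24. MAP1LC3A, an LC3 gene outside the 40, had 20.9 and 21.8 TPM with sgDDX6.2 and 10.2 and 7.76 TPM with sgDDX6.1, beside 11.4 and 11.9 TPM with sgNS. It differed by 1.17 (SE 0.10, limma adjusted p = 1.37e-05), and its groups did not overlap.

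Among the receptors, BNIP3L had 32.8 and 32.4 TPM with sgDDX6.2 and 25.04 and 23.4 TPM with sgDDX6.1, beside 30.99 and 27.3 TPM with sgNS. Its values lay above sgNS with sgDDX6.2, where it was not called (0.16, limma adjusted p = 0.0598). They lay below with sgDDX6.1 (-0.25, limma adjusted p = 0.00682), a call lost without the second sgDDX6.1 library or the first sgNS library. BNIP3L differed between the guides by 0.41 (SE 0.07, limma adjusted p = 0.000958). OPTN differed by 0.39, CALCOCO2 by 0.36, SQSTM1 by 0.29, TAX1BP1 by 0.25 and NBR1 by 0.21 (limma adjusted p between 0.000115 and 0.0123), NBR1 not without either sgDDX6.2 library (adjusted p = 0.0614 and 0.103). BNIP3 was not called (0.15, SE 0.06, limma adjusted p = 0.0722). Of the rest, ATG9A had 0.31, PIK3C3 0.27, ULK2 0.33 and ATG13 0.17. The ULK2 and ATG13 calls were lost without any of 4 and 3 of the libraries of the 2 guides (adjusted p between 0.0565 and 0.155, and between 0.0807 and 0.132). Markers of monocytic cells also differed between the guides, without a test of each. CD68 had 380.3 and 412 TPM with sgDDX6.2 and 273 and 279.7 TPM with sgDDX6.1, beside 222 and 227 TPM with sgNS. ITGAX had 6.15 and 6.2 TPM with sgDDX6.2 and 2.76 and 2.69 TPM with sgDDX6.1, beside 5.35 and 5.65 TPM with sgNS. CSF1R had 4.5 and 4.44 TPM with sgDDX6.2 and 1.79 and 2.16 TPM with sgDDX6.1, beside 0.71 and 0.98 TPM with sgNS. These 3 were chosen after their values were seen. Of the 10 markers, 7 had both sgDDX6.2 values above both sgDDX6.1 values, a share that was not counted over all tested genes. MPO went the other way, with 28.99 and 30.9 TPM with sgDDX6.2 and 41.5 and 39.6 TPM with sgDDX6.1, beside 79.7 and 86.7 TPM with sgNS, and the values of CD14 and FCGR1A overlapped. Their part in the difference of the autophagy genes was not tested.

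Genes around these 40 were taken from lists chosen by function, with earlier results of these data known, so their counts are descriptions. Upstream, of 16 nutrient kinases and TFEB or FOXO factors, 3 rose and 6 fell over both guides (against 33.8% higher and 32.9% lower among all tested genes), with a median of -0.03. FOXO3, a transcription factor of autophagy genes, had 39.4 and 38.4 TPM with sgDDX6.1 and 41.9 and 42.5 TPM with sgDDX6.2, against 57.7 and 59.6 TPM with sgNS, a log2 fold change of -0.52 (SE 0.04, limma adjusted p = 7.76e-07). Lower too were the lysosomal GTPase regulators FLCN and FNIP1 and the GTPase RRAGD, while RRAGC (0.09) was not called. TFE3 (-0.16) and PRKAA1 (-0.25) also fell, TFE3 not called with sgDDX6.2 alone and PRKAA1 not with sgDDX6.1 alone. TFEB (0.10) was not called. The 3 that rose were MTOR (0.22), FOXO1 (0.21) and TSC2 (0.18). FOXO1 had only 2.01 to 2.62 TPM and was called with neither guide alone, and TSC2 was not called with sgDDX6.1 alone. FLCN was at -0.57 (SE 0.06, limma adjusted p = 3.99e-06), with 16.2 and 16.2 TPM with sgDDX6.1 and 14.9 and 16.4 TPM with sgDDX6.2, against 23.97 and 24.1 TPM with sgNS. FNIP1, the partner of FLCN, was at -0.46 and RRAGD, a GTPase that FLCN acts on, at -0.36 (limma adjusted p = 0.000136 and 0.00013). FNIP1 had 25.4 and 21.4 TPM with sgDDX6.1 and 22.5 and 21.95 TPM with sgDDX6.2, against 33.5 and 29.8 TPM with sgNS.

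Of 12 PI3P and lipid transfer helpers, 2 rose and 4 fell (against 33.8% higher and 32.9% lower among all tested genes), with a median of -0.10. WDR45, which binds PI3P and ATG2 and is of the WIPI family, had 6.03 and 6.3 TPM with sgDDX6.1 and 8.28 and 9.58 TPM with sgDDX6.2, against 14.7 and 15.6 TPM with sgNS, a log2 fold change of -0.94 (SE 0.07, limma adjusted p = 4.28e-07). TMEM41B, a lipid scramblase of the ER, had 28.0 and 26.03 TPM with sgDDX6.1 and 26.7 and 27.2 TPM with sgDDX6.2, against 52.99 and 47.6 TPM with sgNS, and fell, with a log2 fold change of -0.87 (SE 0.06, limma adjusted p = 9.94e-08). VMP1, which works with TMEM41B, rose instead, at 0.33 (SE 0.03, limma adjusted p = 3.62e-06), with 171 and 171 TPM with sgDDX6.1 and 197 and 197 TPM with sgDDX6.2, against 146 and 145 TPM with sgNS. MTMR14, a PI3P phosphatase, rose by 0.32 (limma adjusted p = 7.22e-05).

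Of 18 other selective receptors and adaptors, 9 rose and 3 fell (against 33.8% higher and 32.9% lower among all tested genes), with a median of 0.09. CCPG1, a receptor for autophagy of the ER that is known to be induced by ER stress, had 20.2 and 19.1 TPM with sgDDX6.1 and 22.7 and 21.4 TPM with sgDDX6.2, against 151 and 147 TPM with sgNS. Its sgDDX6 levels were several fold below sgNS, a log2 fold change of -2.78 (SE 0.05, limma adjusted p = 1.22e-12), far past any of the 40 genes. The mitochondrial genes FUNDC2 (0.59) and PINK1 (0.77) and the ferritin receptor NCOA4 (0.36) rose (limma adjusted p between 1.81e-07 and 5.49e-06). PINK1, the kinase that marks damaged mitochondria, had 11.1 and 11.3 TPM with sgDDX6.1 and 18.2 and 17.1 TPM with sgDDX6.2, against 7.0 and 8.71 TPM with sgNS.

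Of 12 genes of fusion with the lysosome, 9 rose and 0 fell (against 33.8% higher and 32.9% lower among all tested genes; 0 fell also at an unadjusted limma p under 0.05), with a median of 0.27. VAMP8, the lysosomal SNARE partner of STX17, had 775 and 833 TPM with sgDDX6.1 and 939 and 906 TPM with sgDDX6.2, against 533 and 528 TPM with sgNS, a log2 fold change of 0.70 (SE 0.03, limma adjusted p = 1.04e-08). The lysosomal membrane protein LAMP1 rose by 0.51 (SE 0.03, limma adjusted p = 2.45e-08) with 776 and 765 TPM with sgDDX6.1 and 880.1 and 883 TPM with sgDDX6.2, against 578 and 582 TPM with sgNS, LAMP2 by 0.42 and the SNARE YKT6 by 0.41 (limma adjusted p = 7.4e-07 and 5.72e-06). In fusion, STX17 thus had lower values where VAMP8 and YKT6 had higher ones, though its call with sgDDX6.2 alone was lost with the GC trend removed.

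**Figure D4:**
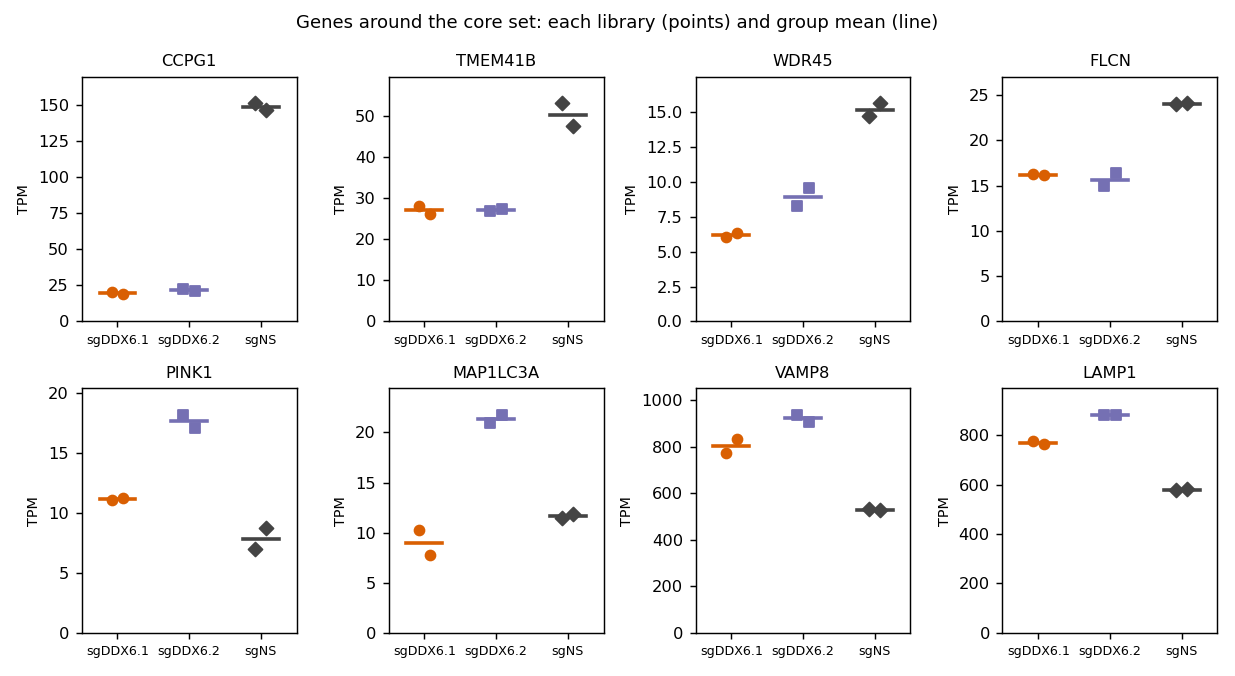
TPM of 8 genes around the core set in each library (points, with the group mean as a line) for sgDDX6.1, sgDDX6.2 and sgNS from left to right, on axes that start at 0. CCPG1, TMEM41B, WDR45 and FLCN are low with both DDX6 guides, VAMP8 and LAMP1 are high, and MAP1LC3A is high with sgDDX6.2 alone, as drawn.

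ATF4 and DDIT3 are known, from mouse cells under amino acid shortage, to bind promoters of autophagy genes such as those of SQSTM1, NBR1 and LC3B. The 4 stress factors listed all fell, with log2 fold changes of -0.70 (SE 0.03, limma adjusted p = 3.82e-09) for ATF4, -1.59 for DDIT3, -2.13 for CEBPB and -3.94 for TRIB3 (limma adjusted p between 8.24e-14 and 3.82e-09). ATF4 had 366 and 381 TPM with sgDDX6.1 and 348 and 351 TPM with sgDDX6.2, against 587 and 589.5 TPM with sgNS. Their part in the levels of the autophagy genes was not tested.

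Transcript composition of the members was set beside their changes. Messages rich in A and U are known to be enriched in processing bodies. Across the 40 genes, the log2 fold change over both guides had a Pearson correlation of -0.16 (Spearman -0.09) with the GC content of a representative GENCODE transcript, against 0.17 (0.24) across 10869 tested genes. These are descriptions across genes, which share the libraries and are not independent. The median GC content was 44.3% for the 8 genes that were higher, 45.7% for the 16 that were lower and 49.6% for the 16 not called, with wide overlap.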

How the data were processed

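Poly(A)+ RNA of 6 libraries in 3 groups of 2 was sequenced. The authors deposited a table of TPM values by gene symbol, and per the submitters' processing notes used RSEM 1.2.31 and GRCh38; for the aligner, annotation, strand setting and guide sequences the entry is: not given in the sources used here. Because a TPM keeps no depth, the depth is unknown and no counting interval is given. Values were taken as log2(TPM + 1), which understates fold changes of low genes, over genes with a TPM of 1 or more in 2 or more libraries. limma 3.58.1 in R 4.3.3 was fitted to 3 group means with a variance trend, with 3 residual degrees of freedom, and p-values (2-sided) were adjusted by Benjamini-Hochberg over all 11151 genes within each of 4 contrasts; a gene is called at an adjusted p under 0.05. "Both guides" is the mean of the 2 guide groups. The script was tested on simulated data. Coordinates, transcripts and overlaps are from GENCODE release 29 (GRCh38), matched by symbol for 18298 of 18806 genes, and promoters from RefSeq in GRCh38.p14.

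The members and lists were chosen with earlier results of these data known. Named in full are, in each role, up to 4 genes with the lowest adjusted p over both guides, with SQSTM1, MAP1LC3B, ULK1, BECN1, ATG9A and genes that differ between guides by 0.5 or more on the log2 scale at the threshold, and from each other list up to 4 genes with the lowest adjusted p. Other genes described at length (ATG10, OPTN, TAX1BP1, BNIP3L, WIPI2, ARSG, FCHSD2 and the other overlapping genes) were chosen after their values were seen. Alternatives were another pseudocount, filter, scaling, variance model, replicate term or grouping, a GC correction, and leaving out each library.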

Additional observations from a re-analysis of the deposited data

Results flagged for a closer look

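For 16 autophagy genes the effects of the 2 guides against sgNS differed by limma's test of the difference itself, given here as the log2 fold change of sgDDX6.2 minus sgDDX6.1. It was 0.33 for ULK2, 0.17 for ATG13, 0.27 for PIK3C3, 0.92 for WIPI1, 0.20 for WIPI2, 0.31 for ATG9A and 0.24 for MAP1LC3B. It was 0.31 for GABARAP, 0.66 for GABARAPL1, 0.25 for GABARAPL2, 0.29 for SQSTM1 and 0.21 for NBR1. It was 0.39 for OPTN, 0.25 for TAX1BP1, 0.36 for CALCOCO2 and 0.41 for BNIP3L. All 16 were higher with sgDDX6.2. Each side is 1 guide with 2 libraries, so the guide and anything else its libraries share cannot be told apart.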

How the results depend on the processing

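The counts of autophagy genes called kept within 1.5 times of those reported, except as follows. With the 4 sgDDX6 libraries as 1 group, 5 genes were higher over both guides in place of 8, since differences between the guides then enter the spread. Of all tested genes 5212 were then called in either direction, in place of 7434. With a loess trend on transcript GC content removed, 9 were higher with sgDDX6.1 in place of 5. Lower with sgDDX6.2 than with sgDDX6.1, in place of 0, were 1 with a pseudocount of 0.1, with quantile normalization, without a variance trend or with robust moderation, and 4 with the GC trend removed; the cause was not tested. With the replicate block, a term for the replicate number, that count was 3. Among all tested genes 4809 were then called between the guides, in place of 3971. Same-numbered libraries had correlations of deviations of 0.04, 0.26 (sgDDX6.1 with sgNS) and 0.10. The main fit leaves this term out, and whether the numbers pair the libraries was not tested. The GC correction turned the value over both guides to 0.15 for PIK3C3 (limma adjusted p = 0.00177) and 0.10 for BNIP3L (limma adjusted p = 0.0479). Without 1 library at a time, counts were 7 to 8 higher and 15 to 16 lower over both guides, 5 to 6 and 16 to 18 with sgDDX6.1, 6 to 12 and 9 to 12 with sgDDX6.2, and 12 to 17 and 0 to 0 for sgDDX6.2 minus sgDDX6.1; the lone library of a group is then assumed to vary like the others. Depth is unknown, and 2 libraries a group limit what small changes can be called.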
